A study of Mus musculus with 6 samples.

Results

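The genes described here arm the phagosome, the compartment in which a macrophage encloses and kills a microbe. They are 5 genes of the phagocyte NADPH oxidase (*Cybb*, *Cyba*, *Ncf1*, *Ncf4* and *Rac2*), the proton channel gene *Hvcn1*, the lysozyme genes *Lyz1* and *Lyz2*, and *Mpeg1*, the gene of perforin-2. They were chosen by name, and all 9 were found, with 1 row each, among the 54532 genes of the table. The study compared primary macrophages, METRNL+/+ from wild-type animals (WT) and METRNL-/- from knockout mice (KO), all of them challenged in culture with the yeast *Candida albicans* for 6 h, with 3 libraries for each genotype. *Metrnl* encodes the secreted protein meteorin-like. The labels give no age, sex or strain, do not name the tissue the macrophages came from, and do not say how the allele was made or whether it is missing from all cells. No library of cells without the yeast was analysed here, so the comparison addresses the genotype within infected cells and not the response to infection. Whether replicates came from different mice or cultures is not in the labels, and p-values rest on the spread among these 6 libraries, part or all of which may be technical.

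The oxidase is a membrane enzyme assembled on demand. Its core is a heme-bearing pair, gp91phox (*Cybb*) and p22phox (*Cyba*), which passes electrons from NADPH across the phagosome membrane to oxygen and makes superoxide. Cytosolic subunits, among them p47phox (*Ncf1*) and p40phox (*Ncf4*), and the GTPase Rac2 join the core on activation. Hv1 (*Hvcn1*) lets protons out of the cytosol to balance the charge that the electrons carry. Lysozyme cuts the peptidoglycan wall of bacteria, and the mouse has a myeloid form (*Lyz2*) and a form known from intestinal Paneth cells (*Lyz1*). Perforin-2 forms pores in the envelopes of engulfed microbes. Inherited loss of oxidase subunits causes chronic granulomatous disease, in which fungal infections are frequent.

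The libraries held 11026529 to 15724897 reads in genes, recovered as whole numbers from the deposited FPKM (fragments per kilobase of gene length, scaled to a total for each library). The total implied by the FPKM was not the reads in genes. Reads in genes were 1.15 times that total in KO replicate 1, 0.892 times in WT replicate 1 and 0.937 to 0.996 times in the others. FPKM thus set KO replicate 1 higher and WT replicate 1 lower than their shares of reads would. *Metrnl* RNA was present in all 6, with means of 75.5 ± 15.9 (WT) and 59.2 ± 6.95 FPKM (KO; SD, n = 3 each; limma adjusted p = 0.181), so it does not check the labels, and KO means the libraries labelled KO throughout. Replicate 1 of each genotype stood apart from replicates 2 and 3: the chi-square of reads per degree of freedom, 1 for sampling noise alone, was 39.6 to 59.4 for pairs of a group with replicate 1 and 7.10 (WT) and 2.30 (KO) for the other pair. Of 11689 genes tested, 28% passed limma's adjusted p below 0.05, with 15.7% higher and 12.4% lower in KO. The summed FPKM of 14 macrophage markers was 6108 to 6925 in WT and 8809 to 9850 in KO. Of these markers 7 were higher, 6 were not called and 1, the Fc receptor gene *Fcgr1* (named after its values were seen), was lower. The largest rise in mean was in *Cd14* (1800 and 2674 FPKM), which was not called. Leaving out 1 library gave 3 to 8 markers higher, with 3 without KO replicate 2 or KO replicate 3 and 4 without WT replicate 3. Of 10 large peritoneal macrophage markers 2 were higher and 3 lower. B cell markers summed to 585 to 751 FPKM in WT and 31.7 to 40.8 in KO, and dendritic cell markers to 150.5 to 242 and 43.6 to 56.1. Neutrophil markers summed to 977 to 1303 and 734 to 844, but 9 of 11 tested were not called, and most of the drop in the sum was in *S100a8* (means 734 and 361 FPKM). In bulk RNA, fewer cells of a type and less RNA per cell cannot be told apart.

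The lysozyme genes lie close together on chromosome 10 (GRCm38), both on the minus strand. *Lyz2* (ENSMUSG00000069516) spans 117277331 to 117282321 and *Lyz1* (ENSMUSG00000069515) spans 117287797 to 117292868, and each has 4 exons. They are near copies, and because their values moved in opposite directions the sequences that tell their reads apart are shown first. The coding sequences match at 422 of 444 bases (95%) and the encoded proteins at 136 of 148 residues. The longest identical run between the transcripts was 118 bases. Of all 50-base words, 195 occur in both, which is 16.1% of those of *Lyz1* and 15.4% of those of *Lyz2*. The coding bases 7 to 156, counted from the A of the start codon, hold 15 of the 22 differences. They are printed from the GENCODE M21 transcripts, 5′ to 3′, with the differing bases in capitals.
Lyz1: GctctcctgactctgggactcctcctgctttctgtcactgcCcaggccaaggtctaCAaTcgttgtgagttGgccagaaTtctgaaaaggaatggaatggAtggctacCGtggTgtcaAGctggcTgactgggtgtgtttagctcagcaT
Lyz2: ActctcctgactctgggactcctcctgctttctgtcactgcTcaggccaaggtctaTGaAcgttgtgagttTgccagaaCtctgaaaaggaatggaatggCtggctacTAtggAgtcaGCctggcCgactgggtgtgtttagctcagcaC

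The windows around the start sites, from 250 bases before to 50 bases after, are shown for the same pair from RefSeq (GRCm38.p6), 5′ to 3′ on the minus strand, at chr10:117292819-117293118 for *Lyz1* and chr10:117282223-117282522 for *Lyz2*. Capitals mark bases not shared in an alignment of the 2 windows.
Lyz1: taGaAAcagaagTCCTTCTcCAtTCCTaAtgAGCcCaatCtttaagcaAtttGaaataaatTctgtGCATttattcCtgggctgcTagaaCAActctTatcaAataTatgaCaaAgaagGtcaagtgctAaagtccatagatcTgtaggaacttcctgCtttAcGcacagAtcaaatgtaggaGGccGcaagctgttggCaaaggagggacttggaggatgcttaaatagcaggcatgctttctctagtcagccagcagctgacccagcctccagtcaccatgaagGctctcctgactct
Lyz2: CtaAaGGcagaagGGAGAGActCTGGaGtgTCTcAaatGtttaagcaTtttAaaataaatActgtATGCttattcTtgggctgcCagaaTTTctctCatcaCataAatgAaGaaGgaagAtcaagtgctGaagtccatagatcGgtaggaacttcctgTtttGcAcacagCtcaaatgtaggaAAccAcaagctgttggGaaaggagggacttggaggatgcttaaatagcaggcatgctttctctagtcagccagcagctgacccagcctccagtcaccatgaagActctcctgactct
The windows were identical in 249 of 302 aligned columns (82.5%). The last 100 bases, around the start site, differed at 1 base, and the first 200 bases held the other 50 unshared bases.

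*Lyz2* was the most abundant member and the one with the largest difference. It stood at 2598, 1803 and 2211 FPKM in WT replicates 1 to 3 and at 4197, 4528 and 4567 FPKM in KO replicates 1 to 3. All 3 KO libraries lay above all 3 WT libraries. The means were 2204 ± 397 and 4431 ± 203 FPKM (SD, n = 3 each), a ratio of 2.01, from 119186 and 254792 reads. On the log2(FPKM + 1) scale used for all log2 fold changes here, KO exceeded WT by 1.02 ± 0.17 (SE, 95% confidence interval 0.62 to 1.42; limma adjusted p = 0.00719). By mean level *Lyz2* ranked 11th among the genes tested, and it took 0.253% to 0.604% of the reads of a library.

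*Lyz1* went the other way. It stood at 81.9, 69.3 and 74.7 FPKM in WT and at 60.9, 57.6 and 59.6 FPKM in KO, and here all KO libraries lay below all WT libraries. The means were 75.3 ± 6.35 and 59.4 ± 1.65 FPKM, 1.27-fold lower in KO (log2 fold change -0.33 ± 0.08 SE; limma adjusted p = 0.0258). Of 9 markers of Paneth cells and of the intestine more widely, 6 were at 0 in every library. The summed level of the 9 was 0.786 to 1.26 FPKM in WT and 0.223 to 0.396 FPKM in KO. The call for *Lyz1* did not hold without WT replicate 3 (limma adjusted p = 0.0779), KO replicate 2 (0.0969) or KO replicate 3 (0.0876), or when libraries were scaled to TPM (0.0849) or genes were not filtered (0.0501). The call for *Lyz2* also did not hold without the filter (0.07).

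Within a library the balance of the pair does not depend on library scaling. *Lyz1* made up 3.06%, 3.70% and 3.27% of the summed FPKM of the pair in WT replicates 1 to 3 and 1.43%, 1.26% and 1.29% in KO replicates 1 to 3. The lowest WT share was above the highest KO share. The mean share fell from 3.34% ± 0.327 to 1.33% ± 0.0921 (SD, n = 3 each; exact two-sided permutation p = 0.1, the smallest that 3 against 3 allows). Seen the other way, *Lyz2* was 29.1 ± 2.87 times as abundant per length as *Lyz1* in WT and 74.7 ± 5.09 times in KO. How reads that match both genes were counted is not given in the sources used here, and its part in either value was not tested. Of 8 further genes of the lysozyme family, 5 were at 0 in all libraries. Only *Lyzl4* passed the filter on low values, with 44 reads over the WT and 44 over the KO libraries.

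**Figure D1:**
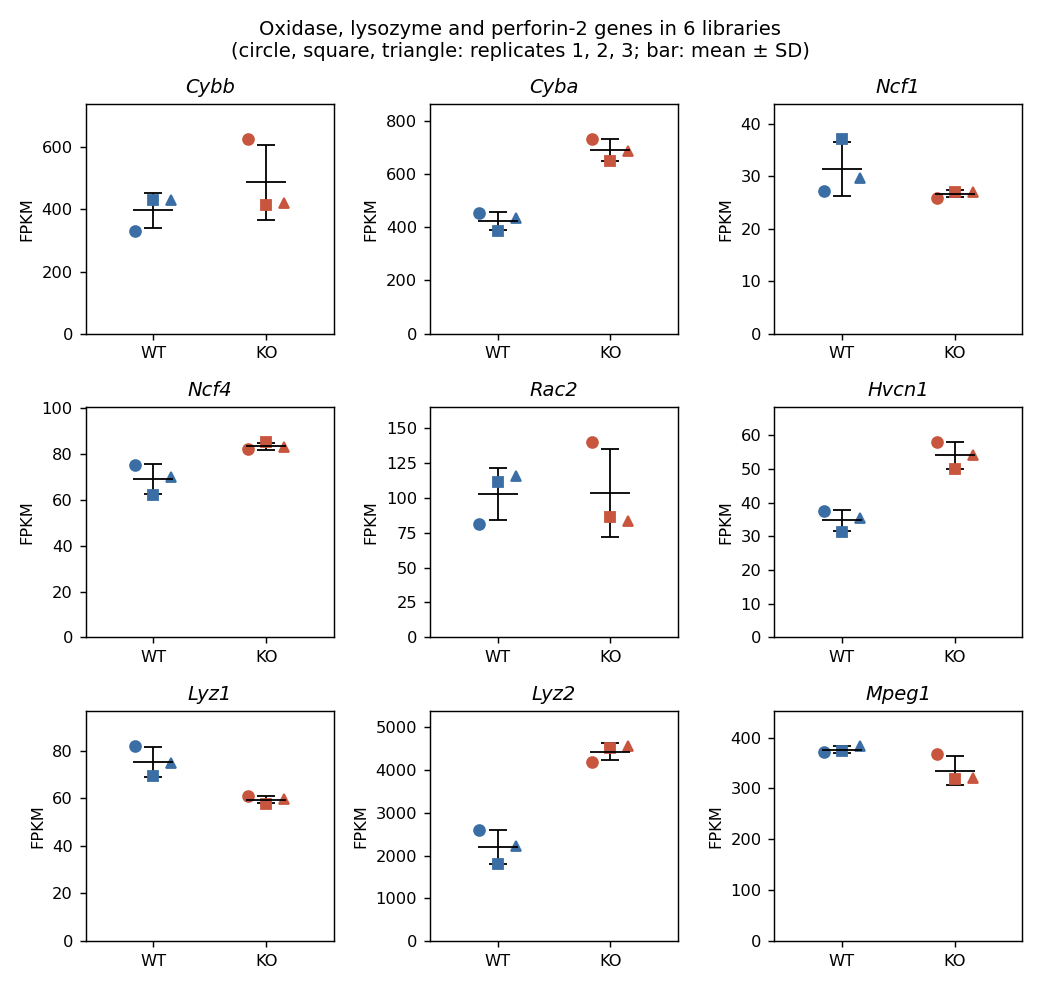
FPKM of the 9 genes in each of the 6 libraries; each panel has its own axis from 0, symbols mark replicates 1, 2 and 3, and bars give the mean ± SD of 3 libraries. The KO libraries lie apart from the WT libraries on the upper side for *Cyba*, *Ncf4*, *Hvcn1* and *Lyz2* and on the lower side for *Ncf1*, *Lyz1* and *Mpeg1*, while replicate 1 of KO is the highest and replicate 1 of WT the lowest for *Cybb*.

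Over the whole group, 3 of the 9 members were higher in KO (*Cyba*, *Hvcn1* and *Lyz2*), 1 was lower (*Lyz1*) and 5 did not pass. The share of all genes called higher was 15.7% and lower 12.4%. By FPKM, the groups did not overlap for 7 members, 4 with KO above and 3 with KO below. As shares of reads in genes, those of *Ncf4* did overlap. Of all genes tested, 45.6% had FPKM groups that did not overlap (25.7% with KO above, 19.9% with KO below). The median log2 fold change of the members was 0.27, against 0.03 over all genes tested. All 9 passed the filter on low values.

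Of the 5 oxidase members, *Cyba* was the 1 that passed the test. *Cyba*, the p22phox gene (ENSMUSG00000006519, chromosome 8, 122424776 to 122432930, minus strand, 7 merged exons), stood at 453, 388 and 434 FPKM in WT and at 733, 649 and 685 FPKM in KO. Every KO library was above every WT library. The means were 425 ± 33.7 and 689 ± 41.8 FPKM, 1.62-fold higher in KO (log2 fold change 0.70 ± 0.10 SE; limma adjusted p = 0.00475). This gene is also read in many cells outside the phagocyte lineage, where its product partners other NADPH oxidases.

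*Cybb*, the gp91phox gene (ENSMUSG00000015340, chromosome X, 9435252 to 9487771, minus strand), stood at 331, 429 and 430.4 FPKM in WT and at 627, 415 and 422 FPKM in KO. The KO range was set by replicate 1, and the other KO libraries lay within the WT range. The means were 397 ± 56.7 and 488 ± 121 FPKM (log2 fold change 0.28 ± 0.20 SE, 95% confidence interval -0.19 to 0.75; limma adjusted p = 0.336), a difference not larger than the spread between replicates. Without both libraries numbered 1 the ratio of means was 0.973 and the log2 fold change -0.04 (limma adjusted p = 0.619). Per length, *Cyba* and *Cybb* were at similar levels in WT, where their ranges overlap. *Cybb* made up 42.2%, 52.5% and 49.8% of the summed FPKM of the pair in WT and 46.1%, 39.0% and 38.1% in KO. These shares overlapped between the groups (exact two-sided permutation p = 0.2).

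The promoter of *Cybb* is known for binding the myeloid factor PU.1 together with interferon regulatory factors, so its window is shown with the matches to 3 motifs in capitals. These are GAGGAA (PU.1), GGAANNGAA (an ETS core next to an IRF core) and GAAANNGAA (core of the interferon response element), searched on both strands. The sequence is from RefSeq (GRCm38.p6), chrX:9469275-9469574, 5′ to 3′ on the minus strand, and its start site lies inside the longer span the authors' table gives for the gene.
Cybb: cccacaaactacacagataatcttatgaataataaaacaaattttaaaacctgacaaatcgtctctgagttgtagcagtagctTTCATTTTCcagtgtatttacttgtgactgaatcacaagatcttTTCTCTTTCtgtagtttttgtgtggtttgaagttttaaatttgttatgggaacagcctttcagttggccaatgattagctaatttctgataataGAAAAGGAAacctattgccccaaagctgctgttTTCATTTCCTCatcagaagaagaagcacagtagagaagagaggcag
The window held 1 PU.1 match at position 9 from the start site, on the opposite strand and overlapping 1 match of the composite site at 4, and 3 interferon element matches at -167, -123 and -29. Of 32851 promoter windows of this length, 28.3% held the PU.1 letters, 8.24% the composite site and 8.56% the interferon element core. Of the 6 members with a window in the table, 3 held the last of these (*Cybb*, *Ncf1* and *Lyz1*). None of the 6 held TTGCNTCA (C/EBP-ATF), CACGTG (E-box of TFEB) or TATAAA, which were in 3.69%, 7.15% and 13.6% of all windows. A match is a run of letters and not a site.

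Neither cytosolic subunit among the members passed the test. *Ncf4*, the p40phox gene (ENSMUSG00000071715, chromosome 15, 78244801 to 78262580, plus strand), stood at 75.3, 62.2 and 70.2 FPKM in WT and at 82.2, 85.2 and 83.2 FPKM in KO. By FPKM the groups did not overlap, but the gene did not pass (means 69.2 ± 6.57 and 83.6 ± 1.5 FPKM; log2 fold change 0.27 ± 0.09 SE, limma adjusted p = 0.0578). As shares of reads in genes the groups overlapped, with 2125 of 14772746 in KO replicate 1 and 2438 of 14309247 in WT replicate 1. *Ncf4* passed without WT replicate 1 (limma adjusted p = 0.0355) but not without any other 1 library (0.0884 to 0.165). With quantile normalization its log2 fold change was 0.12 (limma adjusted p = 0.487), and in TPM it was 0.19 (0.441).

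*Ncf1*, the p47phox gene (ENSMUSG00000015950, chromosome 5, 134220053 to 134229625, minus strand), stood at 27.3, 37.1 and 29.7 FPKM in WT and at 25.9, 27.1 and 27.0 FPKM in KO. The KO libraries were all just below the lowest WT library, and WT replicate 2 was the highest. The means were 31.4 ± 5.14 and 26.7 ± 0.668 FPKM (log2 fold change -0.22 ± 0.12 SE, 95% confidence interval -0.50 to 0.06; limma adjusted p = 0.217). Without WT replicate 2 the log2 fold change was -0.09 (limma adjusted p = 0.411). Of its exon bases 408 also lie in exons of *Gtf2ird2* on the other strand, a gene with at most 184 reads in a library. The share of *Ncf1* in the summed FPKM of *Ncf1* and *Ncf4* was 26.6%, 37.4% and 29.8% in WT and 23.9%, 24.1% and 24.5% in KO (exact two-sided permutation p = 0.1, the smallest possible).

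*Rac2*, the GTPase of the phagocyte oxidase, which lymphocytes also express (ENSMUSG00000033220, chromosome 15, 78559167 to 78572783, minus strand), stood at 81.3, 111 and 116 FPKM in WT and at 139.8, 86.4 and 83.7 FPKM in KO. The replicate 1 libraries lay on opposite sides, the lowest of all in WT and the highest of all in KO. The means of 102.6 ± 18.6 and 103 ± 31.6 FPKM differed by less than the spread between replicates (log2 fold change -0.01 ± 0.23 SE, 95% confidence interval -0.58 to 0.55; limma adjusted p = 0.972). Without both libraries numbered 1, *Rac2* was lower in KO, with means of 113 (WT) and 85.1 FPKM (KO; log2 fold change -0.41; limma adjusted p = 0.00747). The paralogue *Rac1*, which can serve the oxidase in macrophages, was higher, with means of 51.6 ± 0.600 (WT) and 61.9 ± 1.21 FPKM (KO; 1.20-fold; limma adjusted p = 0.02), but its log2 fold change turned to -0.24 when libraries were centred on macrophage markers. The call was also lost without WT replicate 3, KO replicate 2 or KO replicate 3 (limma adjusted p up to 0.0871) and in quantile or TPM scaling.

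By FPKM, *Cybb* and *Rac2* were thus the members in which replicate 1 of KO stood furthest apart. KO replicate 1 was at 1.5 times the mean of KO replicates 2 and 3 for *Cybb* and at 1.64 times for *Rac2*. WT replicate 1 was at 0.772 and 0.718 times the mean of WT replicates 2 and 3. For the other 7 members the same ratios lay between 0.923 (*Lyz2*) and 1.15 (*Mpeg1*) in KO and between 0.815 (*Ncf1*) and 1.29 (*Lyz2*) in WT. In WT, the ratio of *Lyz2* was thus about as far from 1 as that of *Cybb*, on the other side. These ratios include the scaling of the deposited values. Relative to shares of reads in genes, it multiplied KO replicate 1 by 1.15, WT replicate 1 by 0.892 and the others by 0.937 to 0.996. The labels give no batch, and whether replicate 1 differs by culture or by preparation was not tested.

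*Hvcn1*, the proton channel gene (ENSMUSG00000064267, chromosome 5, 122206804 to 122242297, plus strand), stood at 37.6, 31.4 and 35.3 FPKM in WT and at 57.9, 50.003 and 54.2 FPKM in KO. All KO libraries were above all WT libraries. The means were 34.8 ± 3.11 and 54.0 ± 3.95 FPKM, 1.55-fold higher (log2 fold change 0.62 ± 0.09 SE; limma adjusted p = 0.00546). B cells are known to express this channel too, and each of the 14 B cell markers tested fell in KO, among them *Ighm*, the heavy chain gene of IgM (271 ± 31.5 to 10.6 ± 1.85 FPKM). Of the 3563 exon bases of *Hvcn1* 1574 also lie in exons of *Tctn1* on the other strand. Of its 50-base words 39.7% occur in *Tctn1* transcripts, read on either strand. Whether counting used strand is not given in the sources used here, and *Tctn1* was listed with at most 75 reads in a library, where *Hvcn1* had at least 1318. These counts do not show how reads in the shared bases were assigned, and their part in the values of *Hvcn1* was not tested.

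*Mpeg1* (ENSMUSG00000046805, chromosome 19, 12460779 to 12465284, plus strand), the perforin-2 gene and a common marker of macrophages, was steady in WT at 372, 373 and 384 FPKM and stood at 368, 318 and 319.7 FPKM in KO. By FPKM, KO replicate 1 was just under the WT libraries and the other KO libraries were further below. As reads, KO replicates 1 to 3 held 20404 of 14772746, 21728 of 15724897 and 20771 of 14915816 reads in genes. These KO shares were nearly equal and did not set KO replicate 1 apart. WT replicates 1 to 3 held 25875 of 14309247, 19025 of 11026529 and 20814 of 12458673 reads in genes. Each WT share was above all KO shares, and over all libraries the shares ran from 0.138% to 0.181%. The means were 376 ± 6.40 and 335 ± 28.5 FPKM, 1.12-fold lower in KO and not past the threshold (log2 fold change -0.17 ± 0.09 SE, 95% confidence interval -0.38 to 0.04; limma adjusted p = 0.204). In TPM the log2 fold change was -0.25 and *Mpeg1* did not pass (limma adjusted p = 0.124). Without both libraries numbered 1, with only replicates 2 and 3 of each genotype left, it passed (log2 fold change -0.25; limma adjusted p = 0.0289). The libraries left out there were those that stood apart, and that fit also called more of all genes. None of 6 related pore protein genes passed the filter. *Prf1*, the perforin of killer lymphocytes, named here after its values were seen, had 44 reads over the WT and 10 over the KO libraries.

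**Figure D2:**
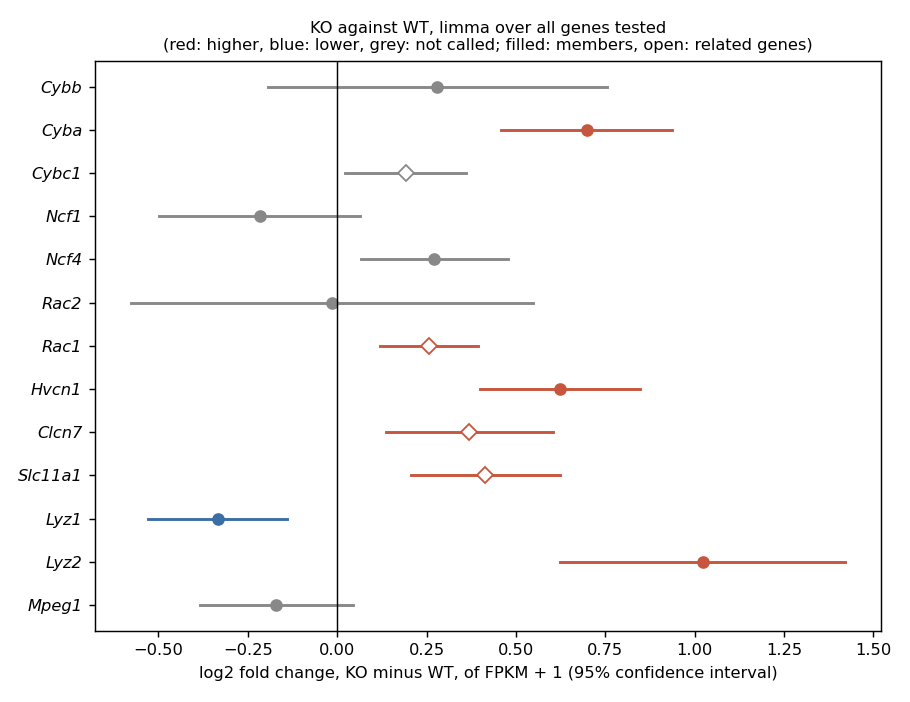
Difference of KO from WT in log2(FPKM + 1), with unadjusted 95% confidence intervals from limma, for the 9 members (filled) and 4 related genes (open); red is called higher, blue lower and grey not called at adjusted p below 0.05. *Lyz2* at 1.02, *Cyba* at 0.70 and *Hvcn1* at 0.62 lie furthest to the right, and *Lyz1* at -0.33 is the called member on the left.

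Ordered by mean level per length in WT, the members were *Lyz2*, *Cyba*, *Cybb*, *Mpeg1*, *Rac2*, *Lyz1*, *Ncf4*, *Hvcn1* and *Ncf1*. *Cyba*, *Cybb* and *Mpeg1* lay within 376 to 425 FPKM on average, and the WT ranges of *Cybb* overlapped those of both others. Overlaps were also found between *Rac2* and *Lyz1*, *Lyz1* and *Ncf4*, and *Hvcn1* and *Ncf1*, while *Cyba* and *Mpeg1* were apart. In KO the order changed only in that *Ncf4* (83.6 ± 1.5 FPKM) stood above *Lyz1* (59.4 ± 1.65 FPKM), and the neighbours that overlapped were *Rac2* and *Ncf4*, and *Lyz1* and *Hvcn1*. *Hvcn1* and *Ncf1* were apart there, with *Hvcn1* at 54.0 ± 3.95 FPKM and *Ncf1* at 26.7 ± 0.668 FPKM. Summed over the 9 genes the level was 3304 to 4058 FPKM in WT and 6216 to 6301 FPKM in KO, most of it *Lyz2*.

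The rest of the oxidase family was described from lists of genes. For this list and those that follow, the shares of all genes tested were 15.7% called higher and 12.4% called lower. Leaving out 1 library gave 912 to 1681 higher and 851 to 1337 lower of all 11689. Of the other subunits and family members 3 passed the filter, of which 1, *Rac1*, was higher and 0 were lower. *Cybc1*, a chaperone of the *Cybb* and *Cyba* heterodimer, averaged 11.6 ± 0.709 (WT) and 13.4 ± 0.569 FPKM (KO; limma adjusted p = 0.0907). The genes of other NADPH oxidases had at most 8 reads in either group: *Nox1* 2 and 5 over WT and KO, *Nox3* 0 and 2, *Nox4* 2 and 0, *Duox1* 4 and 0, *Duox2* 3 and 0, and the organizer and activator genes *Noxo1* 5 and 8 and *Noxa1* 0 and 2.

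Of 24 genes of oxidase assembly and signalling 2 were higher and 4 lower in KO, with a median log2 fold change of 0.02. Without KO replicate 2 or KO replicate 3 the counts were 1 and 2, and leaving out any 1 library gave 1 to 3 higher and 2 to 3 lower (2 lower also without WT replicate 2 or WT replicate 3). The tyrosine kinase gene *Syk*, which acts below fungal receptors, was 1.32-fold higher, at 93.0 ± 2.74 (WT) and 122.7 ± 3.07 FPKM (KO; limma adjusted p = 0.00695). The small GTPase gene *Rap1b* rose 1.39-fold, to 318 ± 29.6 FPKM (limma adjusted p = 0.02, and 0.0578 at most without KO replicate 2 or KO replicate 3). The exchange factor gene *Vav2* fell from 3.62 ± 0.104 to 1.78 ± 0.276 FPKM (limma adjusted p = 0.00287). *Prkca*, the protein kinase C alpha gene and also 1 of the 4 lower, fell from 0.879 ± 0.230 to 0.187 ± 0.0601 FPKM (limma adjusted p = 0.0111). *Prkca* averaged 0.533 FPKM over all libraries, just above the filter of 0.5 FPKM. All its KO values lay below 0.5 FPKM, so it was tested only because of its WT values.

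Of 9 genes that balance charge and pH in the phagosome 3 were higher and 0 lower, with a median log2 fold change of 0.19. No fit without 1 library kept all 3: 2 were higher without WT replicate 1, WT replicate 3 or KO replicate 1, 1 without WT replicate 2, and 0 without KO replicate 2 or KO replicate 3. Among those higher were the lysosomal chloride transporter gene *Clcn7* (46.9 ± 3.48 to 61.0 ± 6.08 FPKM) and the phagosomal metal transporter gene *Slc11a1* (167 ± 13.8 to 223 ± 7.76 FPKM; limma adjusted p = 0.0329 and 0.0167 in that order). The call for *Clcn7* was lost on leaving out any 1 library (limma adjusted p 0.0501 to 0.0946), and that for *Slc11a1* without KO replicate 2 or KO replicate 3 (up to 0.0644). *Clcn5* stood at 6.22 ± 0.354 and 7.56 ± 0.508 FPKM (limma adjusted p = 0.0556). Centred on macrophage markers, these 3 turned negative, as did *Cybc1*, *Syk*, *Rap1b* and, of the genes below, *Gpx4*.

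Of 12 tested genes that make, move or remove oxidants, 3 were higher and 1 was lower, and 1 to 3 were higher when 1 library was left out (1 without WT replicate 3, KO replicate 2 or KO replicate 3). *Sod1*, the cytosolic superoxide dismutase gene, fell from 21.2 ± 0.559 to 14.2 ± 1.39 FPKM (1.49-fold; limma adjusted p = 0.00568). The glutathione peroxidase genes *Gpx1* and *Gpx4* were 1.53-fold and 1.27-fold higher (limma adjusted p = 0.0299 and 0.0269). Both calls were lost without WT replicate 3, KO replicate 2 or KO replicate 3, that of *Gpx1* also without WT replicate 2 and that of *Gpx4* without KO replicate 1 (limma adjusted p up to 0.101 and 0.0963), and both in quantile, TPM and macrophage-centred scaling. *Aqp9*, a channel for water and glycerol, had means of 0.847 ± 0.302 (WT) and 8.13 ± 1.23 FPKM (KO), a 9.59-fold rise (limma adjusted p = 3.20e-04).

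Among 13 tested genes of other antimicrobial effectors 1 was higher and 2 were lower, with a median log2 fold change of -0.34; leaving out 1 library gave 1 to 2 higher (2 without WT replicate 3) and 1 to 4 lower (4 without KO replicate 1, 1 without WT replicate 3 or KO replicate 2). *Chil3*, of the chitinase-like family, rose 4.27-fold to 3827 ± 238 FPKM (limma adjusted p = 1.70e-04). The interferon-inducible GTPase genes *Gbp2* and *Irgm1* were 4.87-fold and 3.4-fold lower (limma adjusted p = 0.00239 and 0.0148), and the call for *Irgm1* was lost without WT replicate 2, WT replicate 3 or KO replicate 2 (up to 0.0568). *Acod1*, the itaconate synthase gene, stood at 513 ± 106 and 288 ± 99.5 FPKM and did not pass (limma adjusted p = 0.0556).

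Of 14 tested myeloid transcription factor genes 6 were higher and 4 lower. Without KO replicate 2 or KO replicate 3 the counts were 3 and 2, and leaving out 1 library gave 3 to 5 higher and 2 to 4 lower (2 lower also without WT replicate 3). *Spi1*, which encodes PU.1, rose from 72.0 ± 7.30 to 102 ± 1.178 FPKM (1.42-fold; limma adjusted p = 0.00936), and *Atf4*, of the integrated stress response, rose 1.62-fold to 289 ± 21.9 FPKM (limma adjusted p = 0.00347). *Tfeb*, a regulator of lysosome genes, fell from 2.56 ± 0.296 to 1.304 ± 0.114 FPKM, and the ETS factor gene *Fli1* fell from 4.03 ± 0.183 to 2.35 ± 0.389 FPKM (limma adjusted p = 0.00541 and 0.00839). Centred on macrophage markers, *Spi1* (0.0046; limma adjusted p = 0.955) and *Atf4* (0.19; 0.133) did not pass, and *Spi1* did not pass in quantile or TPM scaling either.

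**Figure D3:**
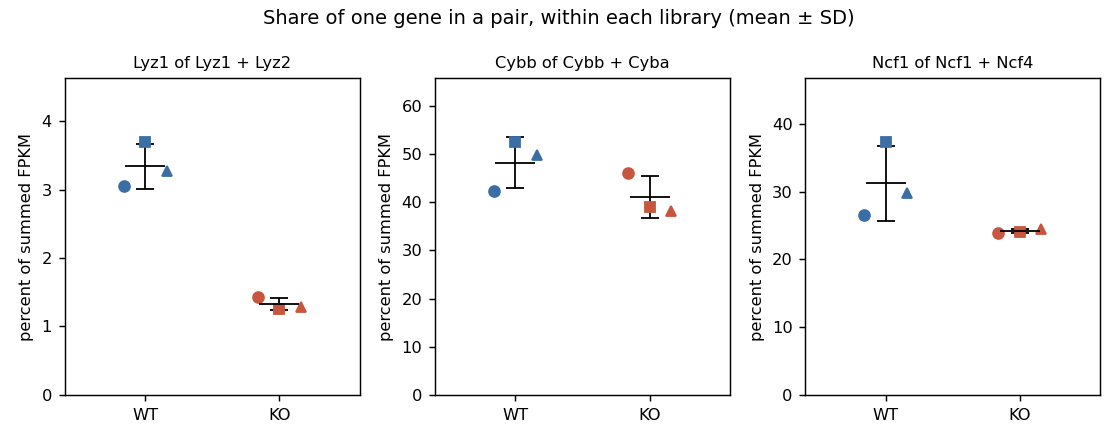
Share of the first gene in the summed FPKM of a pair, in percent, for each of the 6 libraries; symbols mark replicates 1, 2 and 3 and bars give the mean ± SD of 3 libraries. The KO libraries lie at 1.26% to 1.43% for *Lyz1*, below all WT libraries, and overlap WT for *Cybb*.

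The profile over the 6 libraries was compared with those of 7701 other genes (mean of 2 FPKM or more), by the root mean square difference of log2(FPKM + 1) after centring each gene on its own mean. *Hvcn1* was among the 3 genes nearest to *Cyba*, and *Cyba* among the 3 nearest to *Hvcn1*, at 0.04. The others were *Lonrf1* (0.03) and *Lamtor3* (0.04) for *Cyba* and *Neu1* (0.04) and *Lamtor3* (0.04) for *Hvcn1*. Nearest to *Lyz2* were *Phldb1* (0.02), *Il11ra1* (0.03) and *Gnpda1* (0.03), and nearest to *Lyz1* were *Olfm1* (0.03), *Arhgef1* (0.04) and *Rnf123* (0.05). For *Cybb* they were *Abracl* (0.02), *Rbm7* (0.04) and *Odc1* (0.05), each of them highest in KO replicate 1 and lowest in WT replicate 1. For *Rac2* they were *Sbno2*, *Il17ra* and *H2afz* (0.05 each), also highest in KO replicate 1 and lowest in WT replicate 1. *Ncf4* was nearest to *Selenof*, *C1qb* and *Ubl3* (0.02 each), *Ncf1* to *Nolc1* (0.04), *Nol10* (0.05) and *Nsd3* (0.05), and *Mpeg1* to *Flii*, *Alkbh5* (0.01 each) and *Rpl18* (0.02).

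**Figure D4:**
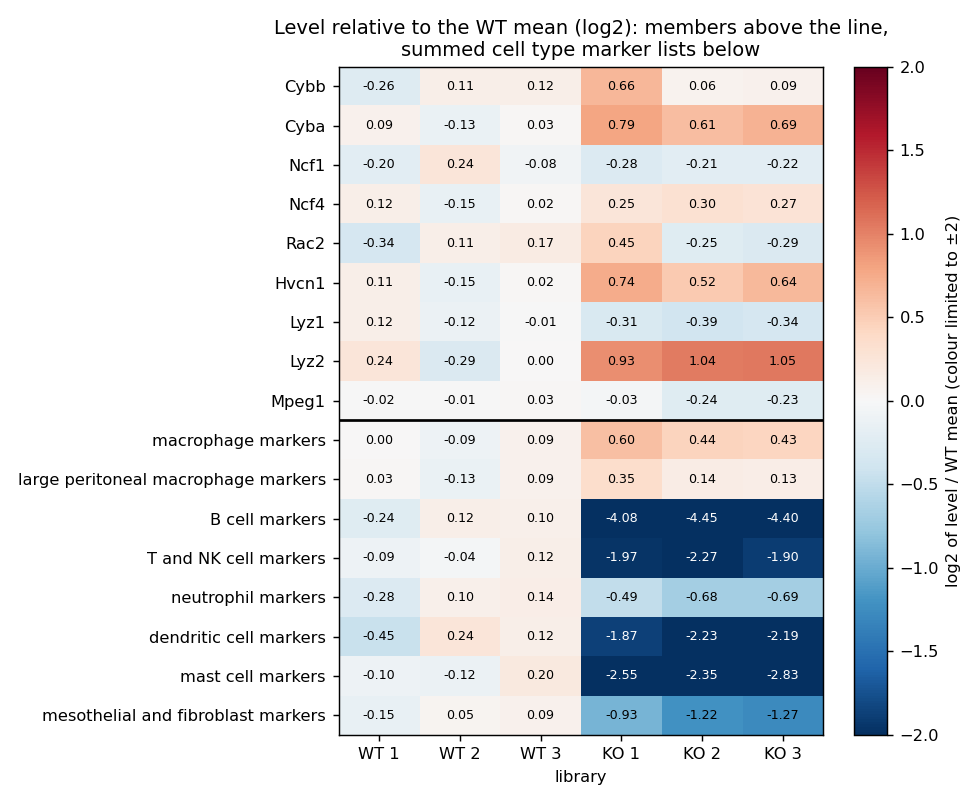
Log2 of each value over the WT mean, for the FPKM of the 9 members (above the line) and the summed FPKM of 8 marker lists (below it), in the 6 libraries; red is above and blue below the WT mean, with colour limited at 2 and the value printed in each cell. The B cell, T and NK cell, dendritic cell and mast cell lists are low in all KO libraries, while the macrophage list stands at 0.43 to 0.60 and *Cyba*, *Hvcn1* and *Lyz2* each lie above it in the same library.

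With the macrophage markers summing to more in KO, the members were set against them within each library. *Lyz2* lay 3.39, 3.07 and 3.23 log2 units above the median macrophage marker in WT and 3.64, 3.81 and 3.81 in KO. With each library centred on that median, a scaling that moves the median of all genes to -0.47, *Lyz2* was still higher in KO (log2 fold change 0.52; limma adjusted p = 0.0109). *Cyba* (0.20; 0.054) and *Hvcn1* (0.12; 0.156) kept their sign but did not pass. *Lyz1* (-0.83), *Ncf1* (-0.72), *Mpeg1* (-0.67) and *Ncf4* (-0.23) were lower by the same fit (limma adjusted p = 2.49e-04, 0.00821, 0.00163 and 0.0222). That fit called 7218 of all 11689 genes tested lower and 236 higher, and the value of *Ncf4* lay above the median of all genes. *Cybb* (-0.22; 0.359) and *Rac2* (-0.51; 0.0946) did not pass. The part that the lower B cell, dendritic cell and other marker levels had in these values was not tested.

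**Figure D5:**
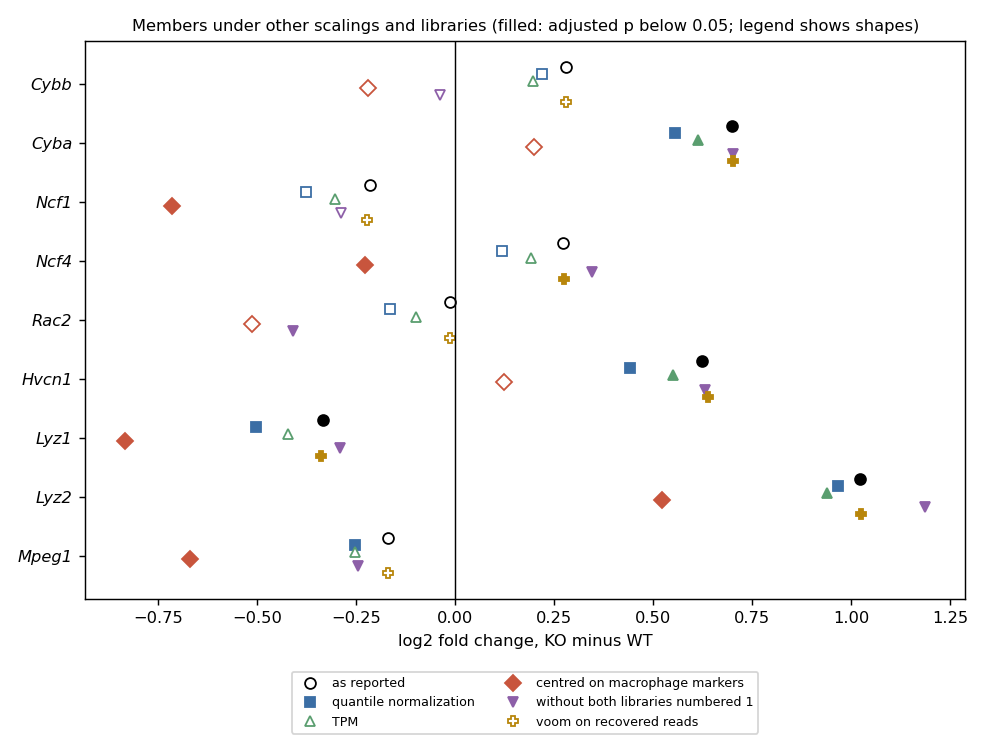
Log2 fold change of the 9 members, KO minus WT, as reported and under 3 other scalings, without both libraries numbered 1 and with voom on recovered reads; filled symbols have an adjusted p below 0.05. *Lyz2* stays between 0.52 and 1.19 and filled throughout these settings, *Lyz1* stays below 0, and *Cybb*, *Ncf4* and *Rac2* shift with the setting.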

How the data were processed

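The labels' protocols name Trizol for RNA and TruSeq (Illumina) for libraries. Their extraction text speaks of retinas where the other labels say macrophages; 8 retina markers summed to at most 1.25 FPKM in a library. The authors deposited 1 table of FPKM for 54532 genes on GRCm38 (mm10, per the submitters' processing notes), with the length of each gene. Aligner, counting tool and strand setting: not given in the sources used here. Multiplying FPKM by the deposited gene length and dividing by each library's smallest step gave whole numbers (tolerance 0.05) for 100% of nonzero values, and these were taken as reads.

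Values were analysed as log2(FPKM + 1) with limma 3.58.1 in R 4.3.3 for the 11689 genes averaging 0.5 FPKM or more, with genotype as the only term, eBayes with an intensity trend and Benjamini-Hochberg adjustment over all genes tested (called below 0.05). Fold changes on this scale understate changes of low genes, and ratios are of mean FPKM. The fit was tested on simulated data. Members, lists and alternatives were chosen with earlier results of these data known. Named genes are the members, *Metrnl*, other oxidase family genes, up to 4 genes with the smallest p of each pathway list, up to 3 with the highest mean of each cell type list, and the 3 nearest profiles of each member; not all are printed, and some are not reported here. Sequences were compared with Biopython 1.88. RefSeq promoter windows matched 6 of 9 members by symbol; the others are *Ncf4*, *Rac2* and *Hvcn1*. Start and end were as in GENCODE M21 for 8 of 9 members, all but *Mpeg1*.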

Additional observations from a re-analysis of the deposited data

How the results depend on the processing

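Alternatives were other filters, pseudocounts, scalings and variance settings, leaving out libraries, and voom on the recovered reads, which was chosen after seeing the data. Among the scalings, median-of-ratios factors hardly changed the deposited values (again 1833 genes higher and 1445 lower), so they are no separate check. *Cyba* and *Hvcn1* stayed higher and called in 18 of 19 alternatives and *Lyz2* in 17. Replicate numbers did not pair the libraries (correlations of same-numbered deviations were -0.50, -0.19 and -0.16); with the replicate block, 479 genes were higher and 604 lower, 0 members were called lower, and *Lyz1* (-0.33, adjusted p = 0.0873) and *Lyz2* (1.02, 0.0617) did not pass.

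Counts against 1833 higher and 1445 lower genes were 542 higher in TPM (31.8% of calls against 55.9%), 236 and 7218 when centred on macrophage markers, and 876 lower at a mean of at least 2 FPKM. Leaving out 1 library gave 912 to 1681 higher and 851 to 1337 lower genes, and 0 to 1 lower members. Of the 9 members, 1 was higher and 4 lower when centred on macrophage markers. With quantile normalization 3 were higher and 2 lower (all genes: 1693 and 1377 of 11689). With array weights they were 4 and 2 (all genes: 2719 and 2152), and without both libraries numbered 1 they were 4 and 3 (all genes: 2252 and 1908). In TPM 3 were higher and 0 lower (all genes: 542 and 1161), and without the filter 2 and 0 (all genes: 1237 and 1187 of 28477).

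Centred on macrophage markers, log2 fold changes were -0.22 for *Cybb*, 0.20 for *Cyba*, -0.72 for *Ncf1*, -0.23 for *Ncf4*, 0.12 for *Hvcn1* and -0.67 for *Mpeg1*. Without both libraries numbered 1 they were -0.039 for *Cybb*, 0.35 for *Ncf4*, -0.41 for *Rac2* and -0.25 for *Mpeg1*. *Ncf4* passed with array weights (0.27) and voom (0.28) but not with quantile normalization (0.12) or TPM (0.19). *Mpeg1* passed with quantile normalization (-0.25) and array weights (-0.23). *Lyz1* did not pass in TPM (-0.42) or without the filter (-0.33), nor *Lyz2* without the filter (1.02). Leaving out 1 library gave 0.20 to 0.33 for *Ncf4*, -0.25 to 0.12 for *Rac2* and -0.39 to -0.27 for *Lyz1*. The cause of these shifts was not tested.

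Centred on macrophage markers, *Rac1* (-0.24), *Cybc1* (-0.31), *Syk* (-0.10), *Rap1b* (-0.022), *Gpx4* (-0.16), *Slc11a1* (-0.085), *Clcn7* (-0.13) and *Clcn5* (-0.26) turned negative. The difference in the *Lyz1* share, KO minus WT, was -2.16 to -1.84 percentage points when 1 library was left out. Intervals cover the spread of these libraries only.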
